A study of Mus musculus with 4 samples.

Results

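The comparison described here sets the control array labelled Lgr5-Hi against the control array labelled Lgr5-Med, which are 2 of the study's 4 arrays. Both carry RNA from cells of small intestinal crypts of adult mice, which flow cytometry had separated by the brightness of an EGFP reporter placed in the Lgr5 gene. The control mice had the genotype Zip7flox/+ with villin-CreERT2, a driver active in gut epithelium, and Lgr5-EGFP-ires-CreERT2, and were given tamoxifen for 2 days. Every control value therefore comes from mice that are expected to carry 1 deleted copy of Slc39a7 (also called Zip7), which encodes a zinc transporter of the endoplasmic reticulum and Golgi. The other arrays come from Zip7flox/flox mice with the same drivers and the same tamoxifen, called Zip7 KO here, and serve only to set values beside those of the controls. The titles call the second fraction Lgr5-Mid and the source names call it Lgr5-Med. The labels do not give the ages of the adult mice, the number of animals behind an array, or whether both fractions came from the same mice.

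The members of the comparison are genes. The level of a gene is its deposited log2 value, and a difference is the value on the array labelled Lgr5-Hi minus that on the array labelled Lgr5-Med, so that 1 stands for 2-fold. The lowest level counted as expressed, called the floor, was percentile 95 of 1191 chemosensory receptor genes that gut epithelium is not known to use. It lay at 6.25 on the array labelled Lgr5-Hi and 6.10 on the array labelled Lgr5-Med. Of 19938 genes with a level, 12247 were above the floor on at least 1 of these arrays and were compared. With 1 array a side the comparison has no replicate error and no test, so genes are counted past a fixed 2-fold difference. Among the receptor genes, whose differences give a rough measure of the noise near the floor only, the SD of the difference was 0.174. Their median difference was 0.09, and 1 of 1191 reached 2-fold.

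Crypts of the small intestine hold Lgr5-positive stem cells at their base, between Paneth cells that make antimicrobial peptides and Wnt ligands. Wnt signals, amplified by R-spondins through LGR receptors, hold these cells in the stem cell state. Daughter cells in which Notch is active divide as transit-amplifying cells and become absorptive enterocytes, while daughters that express Atoh1 become secretory goblet, Paneth or enteroendocrine cells. Tuft cells are a further, chemosensory cell type of this epithelium.

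Lgr5, the gene by which the cells were sorted, went against the fraction labels. It stood at 7.79 on the array labelled Lgr5-Hi and at 10.97 on the array labelled Lgr5-Med, a difference of -3.18. It was 9.08-fold lower under the label that names the higher fraction, and no gene compared was further below 0. In the Zip7 KO pair the difference of Lgr5 had the same sign, at -3.31. The labels were kept as deposited, and every direction below is a direction between the array labelled Lgr5-Hi and the array labelled Lgr5-Med. Whether the labels were exchanged was not tested, and if they were, every sign, count and share of higher and lower genes below would turn. The sort used the Lgr5 reporter, so the value of Lgr5 is a check of the labels and not a result.

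On the array labelled Lgr5-Hi, 82 genes were at least 2-fold higher, 0.67% of those compared, and 64 genes were at least 2-fold lower, 0.523% of those compared, so that 1.19% of the genes were past 2-fold either way. In 12 of the higher and 3 of the lower genes the value on 1 array was at or below its floor, and 76 and 62 genes remain past 2-fold when the floor takes the place of such values. Counts of genes and lists use the deposited values unless said otherwise. At 4-fold the counts were 17 higher and 4 lower. The median difference of all genes compared was -0.04, with quartiles of -0.20 and 0.12. Of these genes 56.7% had a difference below 0 and 43.3% had one above 0, which is the background for the counts of direction given for each list. Of the 82 higher genes 41 were in the enteroendocrine, goblet, Paneth or tuft lists, which held 34, 27, 20 and 22 of the 12247 genes compared, some shared. Of the 64 lower genes 19 were in the stem cell or Wnt lists, which held 31 genes and 21 further ones. The higher genes had 0 in the stem cell or Wnt lists and the lower genes 0 in the other 4. At the shares of 0.67% and 0.523% over all genes, lists of this size would hold few or none, so these counts of 0 are not a result about the lists. Of the 31 lists used here, none held 39 of the higher and 44 of the lower genes. The lists were assembled from textbook markers with earlier results of these data known. The stem cell list comes from cells that were themselves isolated by Lgr5, so it is not independent of the sort. Lgr5 itself is in the stem cell and Wnt lists, and the counts and medians of both lists include it.

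As a whole the control arrays were close, with a Pearson correlation of 0.990 over all 35557 probe sets, which are not independent replicates. Epithelial identity was shared: Epcam, an adhesion molecule of epithelial cells, stood at 11.57 and 11.59 on the arrays labelled Lgr5-Hi and Lgr5-Med, and the median difference of 14 pan-epithelial genes was 0.05. Slc39a7 stood at 8.92 on the array labelled Lgr5-Hi and 8.61 on the array labelled Lgr5-Med. In bulk samples such as these, fewer cells of a type and less RNA per cell cannot be told apart.

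The stem cell markers were lower in the control cells labelled Lgr5-Hi as a group. Of the 31 compared markers 30 were above the floor on both arrays, and 30 of these had a difference below 0, while Etv4 was above it on the array labelled Lgr5-Med alone. Of the 31 markers, Lgr5 included, 18 passed 2-fold, and the median difference over all 31 was -1.07. The list named 34 genes, of which 32 were on the array with a single symbol. Fstl1, the other one on the array, was at or below the floor on both arrays, and Ephb2 and Soat1 were not analysed here.

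Transcription factors of the stem cell state took part. Ascl2, the Wnt-induced factor that sets stem cell identity in crypts, was 7.65 on the array labelled Lgr5-Hi and 9.54 on the array labelled Lgr5-Med, a difference of -1.89. Sox9, which is expressed in stem and Paneth cells, was 10.05 and 10.97, a difference of -0.92. The difference of Mecom, which encodes the zinc finger factor EVI1, was -1.07 between 7.30 and 8.36, and -0.63 when its probe sets were averaged. The RNA-binding protein gene Msi1 was 8.89 and 10.21, a difference of -1.32. These regulators were thus lower on the array labelled Lgr5-Hi by differing amounts, with Ascl2 furthest from 0 among those named.

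Surface and secreted stem cell products followed the same direction. Gkn3, a secreted protein of the gastrokine family, was 6.85 on the array labelled Lgr5-Hi and 8.99 on the array labelled Lgr5-Med, a difference of -2.13. Slc14a1, a urea transporter, was 7.83 and 10.20, a difference of -2.36. Tnfrsf19, a receptor of the TNF receptor family also known as TROY, was 7.08 and 8.29, a difference of -1.21. These are genes of products that reach the cell surface or leave the cell. Rgmb, a BMP co-receptor, was 9.28 and 10.72, a difference of -1.44. Smoc2, which encodes a matrix protein, was 9.61 and 10.70, a difference of -1.09. Cd44, a hyaluronan receptor, was 9.27 and 10.52, a difference of -1.25. Slc12a2, the sodium, potassium and chloride cotransporter, was 10.86 and 11.99, a difference of -1.13.

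Olfm4, a secreted glycoprotein much used as a marker of small intestinal stem cells, had a small difference beside Lgr5. Its values were 12.88 and 13.53, a difference of -0.65 or 1.57-fold, below the 2-fold size used for the counts. Prom1, which is expressed more widely in crypts, was 9.63 and 10.23, a difference of -0.60. Cbx3, a chromatin protein, had a difference of -0.44, and Etv4, an ETS family factor, was at or below the floor on the array labelled Lgr5-Hi, so that its difference is bounded at -0.31.

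**Figure D1:**
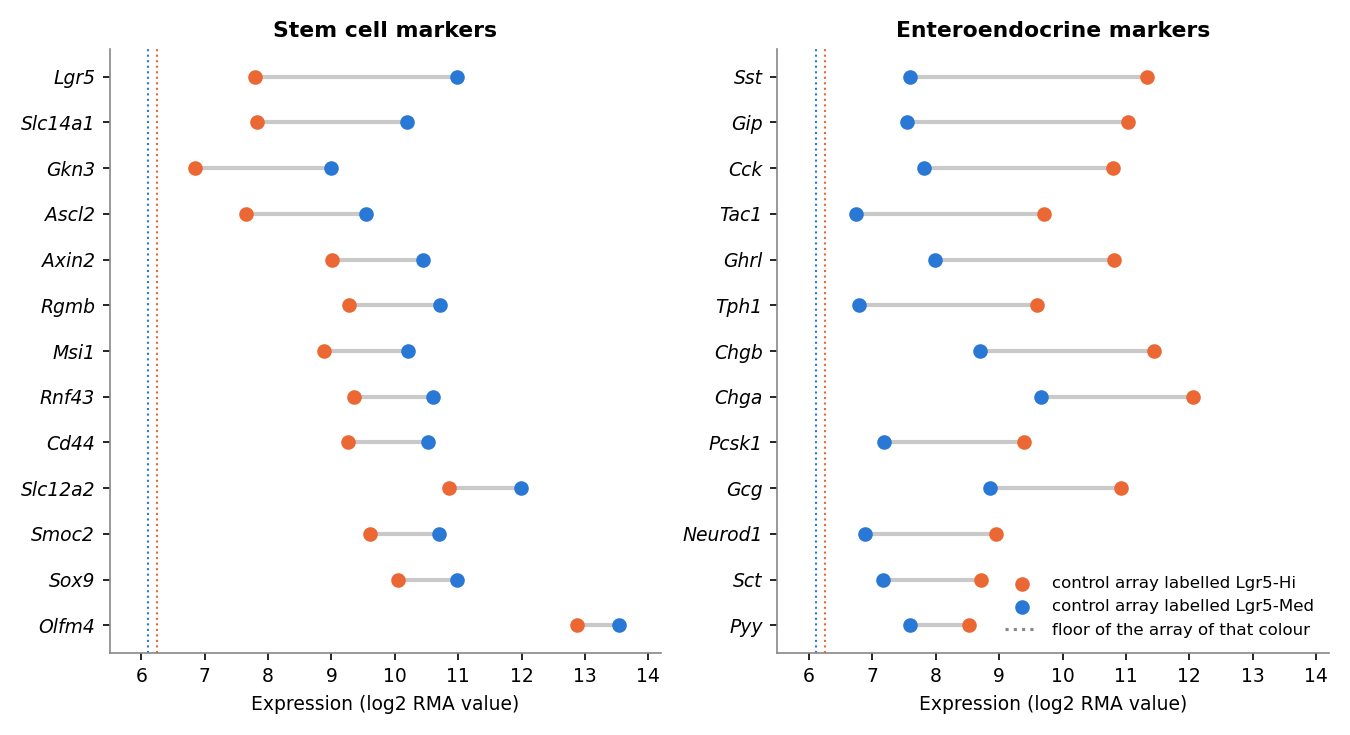
Deposited log2 level of 13 stem cell markers and 13 enteroendocrine genes on the control arrays, with 1 point for the array labelled Lgr5-Hi (orange) and 1 for the array labelled Lgr5-Med (blue). Dotted lines mark the floors of 6.25 and 6.10. Lgr5 to Olfm4 lie higher on the array labelled Lgr5-Med, while the enteroendocrine genes lie higher on the array labelled Lgr5-Hi, as for Sst at 11.33 against 7.60.

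Markers described for reserve or position +4 cells, a second crypt population proposed as stem cells, moved less. Of 8 genes, 6 were lower and 2 were higher on the array labelled Lgr5-Hi, 0 reached 2-fold, and the median difference was -0.29. Clu was above the floor on the array labelled Lgr5-Med alone, and with the floor its difference is 0.12. The other 7 had 5 lower and 2 higher, with a median of -0.35. Lrig1, an inhibitor of ErbB receptors that Lgr5 cells express too, was 9.55 and 10.48, a difference of -0.93. Hopx, a homeodomain protein, was 8.91 and 9.26, a difference of -0.35. Bmi1, a Polycomb protein, had a difference of -0.23. Krt19, a keratin gene, was 12.55 and 12.10, a difference of 0.44.

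The Wnt list held ligands, receptors, feedback regulators and target genes. Whether these roles differ was not tested. Of 31 compared genes, 24 were lower and 7 were higher on the array labelled Lgr5-Hi, 7 reached 2-fold below 0 and 0 reached it above 0, and the median difference was -0.39. Of these, 10 were also in the stem cell list. The 21 genes that were not had a median difference of -0.11, 14 of them were below 0, and 1, Myc, was at least 2-fold lower.

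The ligand and most receptor genes were near 0 or higher on the array labelled Lgr5-Hi, apart from Lgr5 itself at -3.18. Wnt3, the ligand that Paneth cells make, was 7.22 and 6.77, a difference of 0.45. Among receptors, Fzd5 was 9.22 and 8.82, a difference of 0.39, while Fzd7 was 7.47 and 8.46, a difference of -0.99. These 2 Frizzled genes thus had opposite signs. The co-receptor genes Lrp5 and Lrp6 had differences of -0.08 and -0.10. Lgr4, the paralogue of Lgr5 expressed throughout crypts, was 10.17 and 10.38, a difference of -0.22. Tcf7l2, the main crypt transcription factor of the pathway, was 9.17 and 9.21, a difference of -0.03.

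Most feedback regulators and targets were lower on the array labelled Lgr5-Hi. Axin2, a negative regulator that Wnt induces, was 9.01 and 10.45, a difference of -1.44. Rnf43, a ubiquitin ligase that removes Frizzled receptors, was 9.35 and 10.60, a difference of -1.25. Its relative Znrf3 was 8.05 and 8.92, a difference of -0.87. These 3 genes restrain the pathway that induces them. Myc, a transcription factor that drives growth, was 9.90 and 11.17, a difference of -1.27. Ccnd1, which encodes cyclin D1, was 10.62 and 10.85, a difference of -0.24. Nkd1, a further inhibitor induced by the pathway, had a difference of -0.39, and Ephb3, a receptor that positions cells in the crypt, one of -0.83 between 8.37 and 9.19. Axin2, Rnf43, Znrf3 and Ephb3 are also in the stem cell list. Bambi, a BMP pseudoreceptor, the ephrin gene Efnb1 and Kcnn4 went the other way, with differences of 0.53, 0.40 and 0.22. Lef1, Notum, Wif1, Lgr6, Dkk2 and Dkk3 were at or below the floor on both arrays, and Tcf7 was not analysed here.

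The promoters of stem cell and secretory genes were searched for the letters ATCAAAG, a form of the site bound by TCF and LEF factors, on both strands of the 250 bases before the start. The promoters come from RefSeq, assembly GRCm38.p6, and are shown for a pair of genes lower and a pair of genes higher on the array labelled Lgr5-Hi, with the letters in capitals where they occur. The first lies at chr14:61037988-61038237 before 1 of the annotated starts of Tnfrsf19, the second at chr7:142969265-142969514 before Ascl2, both on the minus strand. The third lies at chr6:64728875-64729124 before Atoh1 on the plus strand, where the letters are on the opposite strand and read CTTTGAT, and the fourth at chr7:46672538-46672787 before 1 of the annotated starts of Tph1 on the minus strand.
Tnfrsf19: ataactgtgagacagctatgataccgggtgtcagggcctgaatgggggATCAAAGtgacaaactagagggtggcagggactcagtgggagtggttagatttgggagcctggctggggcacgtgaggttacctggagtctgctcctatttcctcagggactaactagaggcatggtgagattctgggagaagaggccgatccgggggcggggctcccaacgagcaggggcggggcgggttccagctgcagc
Ascl2: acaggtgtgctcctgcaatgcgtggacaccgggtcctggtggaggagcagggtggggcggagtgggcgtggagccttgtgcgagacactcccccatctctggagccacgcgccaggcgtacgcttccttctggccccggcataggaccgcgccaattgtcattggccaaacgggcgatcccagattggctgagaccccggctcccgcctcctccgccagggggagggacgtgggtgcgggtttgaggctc
Atoh1: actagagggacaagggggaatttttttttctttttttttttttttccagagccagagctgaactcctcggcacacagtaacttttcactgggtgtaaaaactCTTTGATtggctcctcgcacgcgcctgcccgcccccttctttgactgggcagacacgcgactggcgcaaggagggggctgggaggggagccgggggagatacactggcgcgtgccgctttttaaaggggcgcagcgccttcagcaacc
Tph1: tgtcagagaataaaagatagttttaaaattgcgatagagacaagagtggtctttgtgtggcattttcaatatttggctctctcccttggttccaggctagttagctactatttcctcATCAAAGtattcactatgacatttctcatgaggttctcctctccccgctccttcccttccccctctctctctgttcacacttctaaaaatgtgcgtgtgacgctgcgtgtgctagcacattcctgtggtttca

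The letters began 202 bases before the start shown in Tnfrsf19, 148 in Atoh1 and 133 in Tph1. Ascl2 had no match in this window. The other annotated start searched for Tnfrsf19, and that for Tph1, had no match either. Over all promoters of this length, 1005 of 27025 genes held the letters (3.72%), as did 282 of the 9798 compared genes that had a promoter entry (2.88%). The letters stood before 3 of 21 stem cell markers with an entry, namely Mecom, Tnfrsf19 and Sp5. Of 28 enteroendocrine markers with an entry 1, Tph1, held them (3.57%). They stood before 3 of the 49 genes at least 2-fold lower and before 5 of the 66 genes at least 2-fold higher. The last group was Atoh1, Dclk1, Lrrc26, Rbp4 and Tph1. Of these, Rbp4 is past 2-fold by its deposited values only, and with the floor its difference is at least 0.89. The letters occurred on both sides of the comparison. CAAAGTCC, a form of the site of HNF4, a factor of enterocytes, stood before 0 of 49 and 0 of 66 of these genes, beside 1.38% of all promoters. A match describes letters and is not evidence of binding.

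Other genes far below 0 were in no list. Cyp2e1, a cytochrome P450, was 6.38 on the array labelled Lgr5-Hi and 8.73 on the array labelled Lgr5-Med, a difference of -2.35. Sorbs2, an adaptor protein of the actin cytoskeleton, was 7.49 and 9.30, a difference of -1.81. Igfbp4, which binds insulin-like growth factors, was 8.59 and 10.36, a difference of -1.77. All 3 were lower by more than 3-fold. Sfrp5, which encodes a secreted Wnt antagonist, was 7.57 and 9.09, a difference of -1.52. Hunk, a kinase gene, was 7.68 and 9.20, also a difference of -1.52. Prelp, a matrix proteoglycan, was 8.66 and 10.22, a difference of -1.57. Car12, a carbonic anhydrase, was 8.49 and 9.88, a difference of -1.39. Ccdc3, Sesn3, Slc1a2 and Nav1 had differences between -1.70 and -1.41. Cyyr1 was at or below the floor on the array labelled Lgr5-Hi and 7.37 on the other, a difference at least as far from 0 as -1.13.

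The enteroendocrine genes held the largest differences of the comparison. Of the 34 markers compared, 6 were above the floor on the array labelled Lgr5-Hi alone, which fixes their direction. The other 28 were above the floor on both arrays, and 28 of these were higher on the array labelled Lgr5-Hi. By the deposited values 21 of the 34 passed 2-fold, by the floors 20, and the median difference was 1.43, or 1.33 over the 28 alone. Enteroendocrine cells are scattered hormone cells of the gut, and the list comprised their hormones, the proteins of their granules and their transcription factors. Of 40 listed genes 37 were on the array with a single symbol. Nts, Resp18 and Cplx2 were at or below the floor on both arrays, and listed genes other than those 37 were not analysed here.

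Hormones of several enteroendocrine subtypes were high. Sst, which encodes the inhibitory hormone somatostatin of D cells, was 11.33 on the array labelled Lgr5-Hi and 7.60 on the array labelled Lgr5-Med, a difference of 3.74 or 13.3-fold. Gip, the incretin of K cells, was 11.04 and 7.55, a difference of 3.49 or 11.2-fold. Cck, the hormone that empties the gallbladder, was 10.80 and 7.81, a difference of 2.98. These were the largest differences above 0 among the genes compared. Ghrl, which encodes ghrelin, was 10.81 and 7.99, a difference of 2.82. Tac1, the gene of substance P, was 9.70 and 6.74, a difference of 2.97. Gcg, from which L cells make GLP-1, was 10.93 and 8.85, a difference of 2.08. Sct and Pyy, the genes of secretin and peptide YY, came lower, with differences of 1.54 (8.71 and 7.17) and 0.93 (8.52 and 7.59).

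Enzymes and granule proteins followed. Tph1, the enzyme that commits tryptophan to serotonin synthesis in enterochromaffin cells, was 9.60 and 6.78, a difference of 2.81. Chga and Chgb, the chromogranin genes of hormone granules, had differences of 2.40 (12.06 and 9.66) and 2.74 (11.44 and 8.70). Pcsk1, which cleaves prohormones, was 9.39 and 7.18, a difference of 2.21. The serotonin pathway was seen again in Slc18a1, a vesicular monoamine transporter gene in no list, at 8.29 and 6.65, a difference of 1.64. Several further genes were above the floor on the array labelled Lgr5-Hi only, so that their differences are lower bounds. They were at least 2.05 for Scgn, which encodes the calcium sensor secretagogin, and at least 1.30 for Trpa1, an irritant receptor of enterochromaffin cells. The bounds were 1.14 for Cpe, which trims prohormones, and 0.52 for Scg3, a granule protein, and Scg3 therefore cannot be said to reach 2-fold.

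The transcription factors of the lineage gave smaller differences than the leading hormones. Neurog3, which starts the enteroendocrine fate and is expressed only briefly, was 9.19 and 8.25, a difference of 0.94. Neurod1, which acts after it, was 8.95 and 6.89, a difference of 2.06. Rfx6 was 8.70 and 6.92, a difference of 1.78. Insm1 was 9.23 and 7.90, a difference of 1.33. Isl1, Pax4 and Pax6 had differences of 1.11, 0.95 and 0.86. Nkx2-2 and Rfx3 had differences of 0.74 and 0.26, so these factors lay on both sides of 2-fold.

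Among the 25 highest differences were genes outside the enteroendocrine list. Reg4, a secreted lectin of enteroendocrine and goblet cells, was 12.11 and 10.28, a difference of 1.83. Hepacam2, an adhesion protein, was 9.39 and 7.69, a difference of 1.70. Pnliprp2, a lipase that pancreas also makes and a member of the Paneth cell list, was 10.82 and 9.21, a difference of 1.61. Gpx3, a secreted glutathione peroxidase, was 8.29 on the array labelled Lgr5-Hi and at or below the floor on the other, a difference of at least 2.18. Vim, which encodes vimentin, a filament protein best known from mesenchymal cells, was 10.15 and 8.05, a difference of 2.10. Vim is a member of the list of stromal, endothelial and red blood cell markers, of which 11 were compared, 7 higher and 4 lower. Their median difference was 0.04, which turned below 0 under quantile normalisation. Of the 10 above the floor on both arrays 7 were higher and 3 lower. Of that list 13 genes were at or below the floor on both arrays, among them the endothelial genes Pecam1, Kdr and Cdh5 and the fibroblast genes Pdgfra, Dcn and Lum. The summed linear level of the 24 stromal list genes with a value was 2754 on the array labelled Lgr5-Hi and 1820 on the array labelled Lgr5-Med, and 1620 and 1555 without Vim.

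Goblet cell genes were higher too, by smaller amounts. Of 27 compared markers 25 were higher and 2 were lower on the array labelled Lgr5-Hi, 10 were at least 2-fold higher, and the median difference was 0.92. Kcnma1 was above the floor on the array labelled Lgr5-Hi alone, and the other 26 had 24 higher and 2 lower. Atoh1, the factor that all secretory lineages need, was 9.38 and 8.26, a difference of 1.12. Spdef, which acts in goblet and Paneth maturation, was 8.49 and 7.64, a difference of 0.85. Among mucus genes, Clca1 was 11.65 and 10.22, a difference of 1.42. Muc2, the gel-forming mucin, was 13.03 and 12.01, a difference of 1.02. Agr2, which helps to fold that mucin, was 12.78 and 11.60, a difference of 1.18. Tff3, the trefoil peptide secreted with mucus, was 13.15 and 12.05, a difference of 1.11. These goblet products lay within a narrow span of differences around 2-fold. Zg16, a lectin of the mucus, was 12.97 and 12.28, a difference of 0.69. The exceptions in direction were Foxa3 at -0.14 and St3gal6 at -0.09. Retnlb and Best2 were at or below the floor on both arrays.

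Paneth cell genes were mostly higher, by differing amounts. Of 20 compared markers 19 were higher on the array labelled Lgr5-Hi, 6 reached 2-fold, and 1, Sox9, was lower, with a median difference of 0.46. Itln1, an intelectin, was 11.50 and 10.08, a difference of 1.42. Ang4, an antimicrobial ribonuclease, was 10.82 and 9.44, a difference of 1.37. Mmp7, the protease that activates defensins, was 11.27 and 10.27, a difference of 0.99. Other products of the cell type differed less. Lyz1, the Paneth cell lysozyme, was 13.94 and 13.61, a difference of 0.33. Reg3g, an antimicrobial lectin, was 12.81 and 12.44, a difference of 0.37. Defa24 had a difference of 0.41, and as a member of a family of near-identical defensins its probe set may read relatives as well.

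Tuft cell genes were mostly higher as well. Of 22 compared markers 19 were higher and 3 lower, 4 were at least 2-fold higher, and the median difference was 0.56. Dclk1, the kinase used as a tuft marker, was 9.01 and 7.998, a difference of 1.01. Avil, an actin-binding protein, was 8.34 and 7.33, a difference of 1.01. Trpm5, the taste-transduction channel, was 8.76 and 7.82, a difference of 0.95. The difference of Pou2f3, the factor the lineage needs, was 0.22 between 7.64 and 7.42, so the factor moved less than these products. All 4 genes counted past 2-fold lay just past it, between Avil and Sh2d6, both at 1.01. Il25, Chat, Tslp, Gnat3, Hpgds and Itprid1 were at or below the floor on both arrays.

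Notch genes went both ways. Of 22 compared genes 12 were higher and 10 lower, and the median difference was 0.10. Of the 21 above the floor on both arrays 11 were higher and 10 lower. Atoh1 was past 2-fold, and Rbp4, a retinol carrier at or below the floor on the array labelled Lgr5-Med, had a difference of at least 0.89. Notch1, the receptor of crypt progenitors, was 9.51 and 10.48, a difference of -0.97. Hes1, the target that represses Atoh1, was 8.86 and 9.47, a difference of -0.61. The ligand genes Dll4 and Dll1, which secretory cells present to their neighbours, had differences of 0.45 and 0.27. Targets did not share a direction, since Hes5 and Nrarp had differences of 0.30 and 0.10. The BMP and TGF-beta list, whose signals favour differentiation, had a median difference of 0.17, with 10 of 15 genes higher and Rgmb as the gene at least 2-fold lower. Of the 13 above the floor on both arrays 9 were higher and 4 lower.

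**Figure D2:**
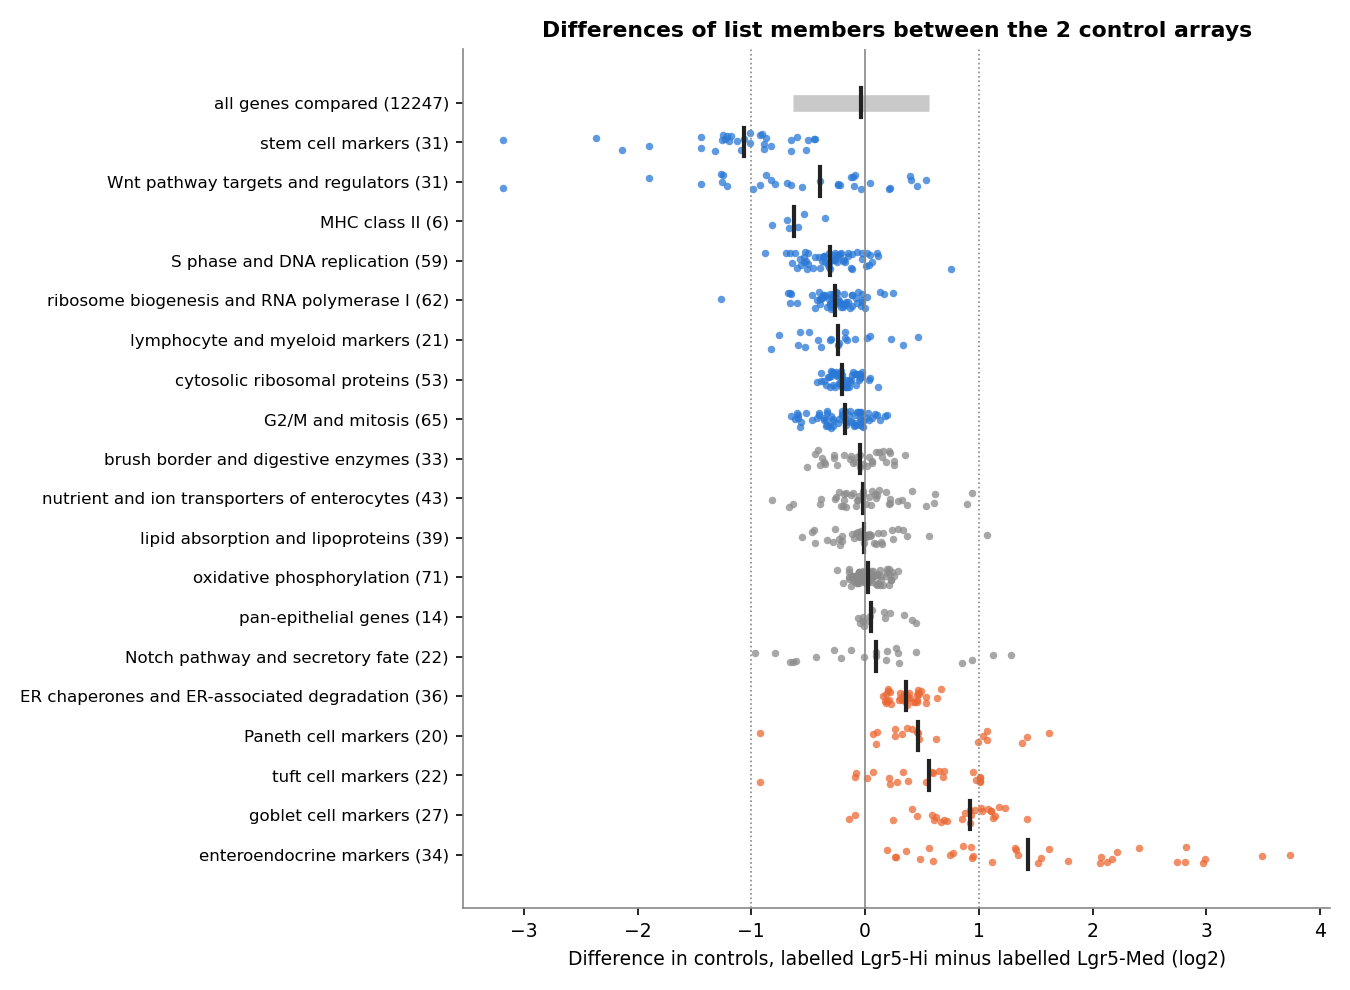
Difference in log2 level, labelled Lgr5-Hi minus labelled Lgr5-Med in controls, for each compared member (dot) of the main gene lists, with the list median as a black tick. Dots are blue where the median is below -0.1, orange where it is above 0.15 and grey otherwise. The grey bar spans percentiles 2.5 to 97.5 of all 12247 genes, -0.63 to 0.56, and dotted lines mark 2-fold. The medians run from -1.07 for stem cell markers to 1.43 for enteroendocrine markers, and most enterocyte lists lie near 0.

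The absorptive lineage differed little in level between the control arrays. The brush border and digestive enzyme list had 14 genes higher and 19 lower, 0 at 2-fold, and a median difference of -0.04. Vil1, which bundles actin in microvilli, was 11.64 and 11.58, a difference of 0.06. Alpi, the intestinal alkaline phosphatase of mature enterocytes, was 11.62 and 11.44, a difference of 0.19. Sis, sucrase-isomaltase, was 11.56 and 11.41, a difference of 0.16. Members nevertheless ranged in both directions, as with Lct, lactase, at 10.24 and 10.60, a difference of -0.35, and Muc3, a membrane mucin, at 0.35.

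The other lists of enterocyte function also had medians near 0. The transporters had 21 genes higher and 22 lower, 0 at 2-fold, and a median difference of -0.02. Of the 42 above the floor on both arrays 21 were higher and 21 lower. Members of the transporter list past a difference of 0.8 in size included Slc28a3 at 8.33 and 7.39, a difference of 0.94. Slc13a1, a sulfate transporter, was at 9.0 and 8.11, a difference of 0.89, and the water channel Aqp1 had one of -0.82. Cftr, the chloride channel of crypts, was 9.64 and 10.27, a difference of -0.63. The lipid absorption list had 19 genes higher and 20 lower and a median of -0.01. Its member past 2-fold was Clps, pancreatic colipase, at 12.63 and 11.56, which is also in the Paneth cell list. The medians of the transporter and lipid lists turned above 0 under quantile and loess normalisation. Xenobiotic enzymes had 28 of 44 genes higher, 0 at 2-fold and a median of 0.11, led by the carboxylesterase Ces1f at 9.998 and 9.01, a difference of 0.99. Of the 42 xenobiotic genes above the floor on both arrays 28 were higher and 14 lower. Differentiation factors had a median of 0.07, with Hnf4a, the nuclear receptor of enterocyte identity, at 11.96 and 12.06, a difference of -0.09. Villus tip genes had a median of 0.08 and oxidative phosphorylation genes one of 0.02.

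Growth and division genes were mostly a little lower on the array labelled Lgr5-Hi. In the list of DNA replication and S phase genes 51 of 59 were lower and 0 reached 2-fold, with a median difference of -0.31. Prim1, the small subunit of primase, was 7.99 and 8.87, a difference of -0.88. Mcm2, a subunit of the replicative helicase, was 9.52 and 10.16, a difference of -0.64. E2f2, a factor that controls S phase genes, went the other way, with 8.53 and 7.78, a difference of 0.75. For mitosis 56 of 65 genes were lower, with a median of -0.18. Bub1, a spindle checkpoint kinase, was 8.15 and 8.80, a difference of -0.65, whereas Mki67, a marker of cycling cells, was 10.73 and 10.77, a difference of -0.04. For ribosome biogenesis, 57 of 62 genes were lower, the median difference was -0.26, and Myc was the member past 2-fold. Polr1b, a subunit of RNA polymerase I, was 9.63 and 10.28, a difference of -0.65. Of 53 ribosomal protein genes 50 were lower, and their median was -0.21. All 4 medians kept their sign under every normalisation tried, but 14 housekeeping genes also had a median of -0.15, and a shift of this size in many genes cannot be given an error with 1 array a side.

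Genes of the endoplasmic reticulum moved together by small amounts. Of 36 compared chaperone and degradation genes 36 were higher on the array labelled Lgr5-Hi and 0 reached 2-fold, with a median difference of 0.36. Hspa5, the chaperone BiP, was 12.48 and 12.14, a difference of 0.34. Sdf2l1, which acts with BiP, was 9.70 and 9.03, a difference of 0.67. Ern1, the stress sensor IRE1-alpha, was 9.14 and 8.51, a difference of 0.63. Zinc genes showed no common direction, with 15 of 23 higher and a median of 0.05. Slc39a10, a zinc importer of the cell surface, was the member past 2-fold, at 7.15 and 8.26, a difference of -1.11.

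Markers of immune cells were mostly lower or at the floor. Of the lymphocyte and myeloid list 21 genes were compared, 5 higher and 16 lower on the array labelled Lgr5-Hi. Of these 0 reached 2-fold, and the median difference was -0.24. In 5 of the 21 the value on 1 array was at or below its floor, so the filter bears on their direction. The 16 above the floor on both arrays had 4 higher and 12 lower, with a median of -0.27. A further 13 list genes were at or below the floor on both arrays, including Cd3d, Cd4, Cd79a, Ms4a1, Csf1r and Adgre1. The summed linear level of the 34 list genes with a value was 8194 on the array labelled Lgr5-Hi and 10268 on the array labelled Lgr5-Med. That sum includes Cd74, the list member with the highest level, at 11.33 and 11.92. It also includes Lyz2, which is in the Paneth cell list too, at 10.32 and 9.85. No sum was taken without these genes. The cytotoxic granule gene Gzmb was 8.33 and 9.16, a difference of -0.83, and Cd3e, a subunit of the T cell receptor complex, was 7.57 and 7.80, a difference of -0.24. All 6 MHC class II genes compared were lower as well, with a median of -0.63. H2-Eb1, a chain of the class II complex, was 10.003 and 10.83, a difference of -0.82. Ciita, the coactivator that drives these genes, was 7.22 and 7.76, a difference of -0.54. The part of lymphocytes and myeloid cells in the lower values on the array labelled Lgr5-Hi was not tested. Interferon-stimulated genes had a median of -0.01, which turned above 0 under quantile and loess normalisation, and immediate-early genes, which respond to tissue handling, were higher in 24 of 28 cases with a median of 0.18. Adhesion and ephrin genes had a median of 0.05.

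**Figure D3:**
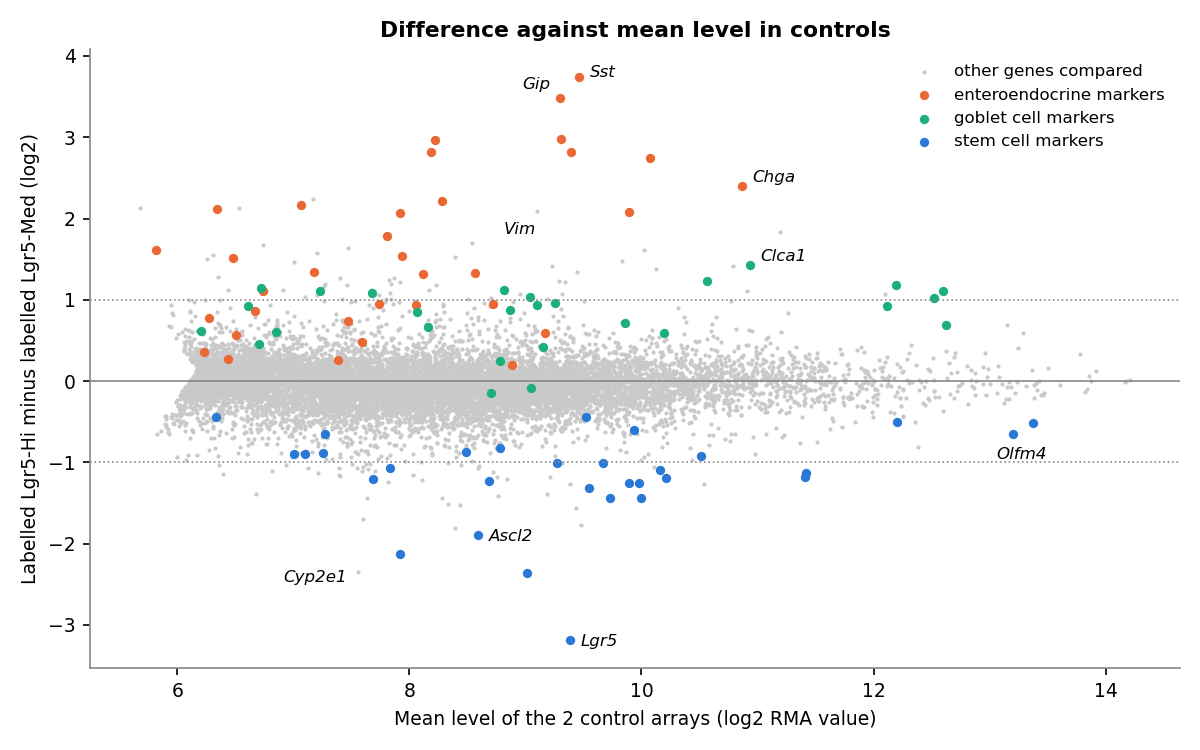
Difference in log2 level, labelled Lgr5-Hi minus labelled Lgr5-Med in controls, against the mean log2 level of the control arrays, 1 point for each of 12247 genes. Coloured points mark the stem cell (blue), enteroendocrine (orange) and goblet (green) lists, and dotted lines mark 2-fold. The stem cell markers lie below 0 and the enteroendocrine and goblet markers mostly above it over a wide span of levels, while most genes lie close to 0.

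The Zip7 KO arrays gave the same contrast in cells that share no array with the controls. In that pair 220 of the same genes passed 2-fold above 0 (1.8%) and 90 passed it below 0 (0.735%), 2.53% either way. Above 0 were 49.4% of all genes compared and below 0 were 50.6%, the background for counts of direction in that pair. Of the 82 genes higher in controls, 82 were above 0 in the Zip7 KO pair and 67 past 2-fold, which is 81.7% of the controls' genes and 30.5% of those of the Zip7 KO pair. Of the 64 lower genes, 64 were below 0 and 52 past 2-fold, which is 57.8% of the Zip7 KO pair's lower genes. Over all genes compared, the differences of the pairs had a Pearson correlation of 0.77 across genes, which are not independent replicates.

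Stem cell and enteroendocrine lists had medians of the same sign in the pairs. The stem cell median was -1.07 in controls and -1.11 in the Zip7 KO pair, and the enteroendocrine median 1.43 and 1.25. Of the stem cell markers 24 of 31 were further below 0 in the Zip7 KO pair than in controls. Of the enteroendocrine markers 23 of 34 had a smaller difference in the Zip7 KO pair. The share of all genes compared with a lower difference in that pair was not counted, so these counts have no background. Sst had differences of 3.74 and 3.67, and Ascl2 -1.89 in both. Gcg differed more between the pairs, with 2.08 in controls and 3.13 in the Zip7 KO pair. Ghrl had differences of 2.82 and 2.02, Insm1 of 1.33 and 0.63, Vwa5b2 of 1.34 and 0.66, and Cyp2e1 of -2.35 and -1.67.

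Several enterocyte lists that lay near 0 in controls had larger medians in the Zip7 KO pair. The transporter median was -0.02 in controls and 0.52 in the Zip7 KO pair, in which 38 genes were higher and 5 lower and 8 reached 2-fold. The brush border median was -0.04 and 0.26, the lipid median -0.01 and 0.34 and the xenobiotic median 0.11 and 0.58. Slc13a1 had a difference of 0.89 in controls and 2.13 in the Zip7 KO pair, and Alpi one of 0.19 and 1.16. The Paneth cell median was 0.46 in controls and 0.997 in the Zip7 KO pair, and that of the endoplasmic reticulum list 0.36 and 0.72. Other lists had lower medians in the Zip7 KO pair. The tuft median was 0.56 in controls and 0.32 in the Zip7 KO pair, where 0 tuft markers passed 2-fold, and the BMP and TGF-beta median was 0.17 and -0.04. Derl3, a factor of protein degradation at the endoplasmic reticulum, had the gap of largest size between the pairs among the genes compared, with 0.46 in controls and 2.502 in the Zip7 KO pair. With 1 array in each of the 4 groups, whether these differences differ between the genotypes was not tested.

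**Figure D4:**
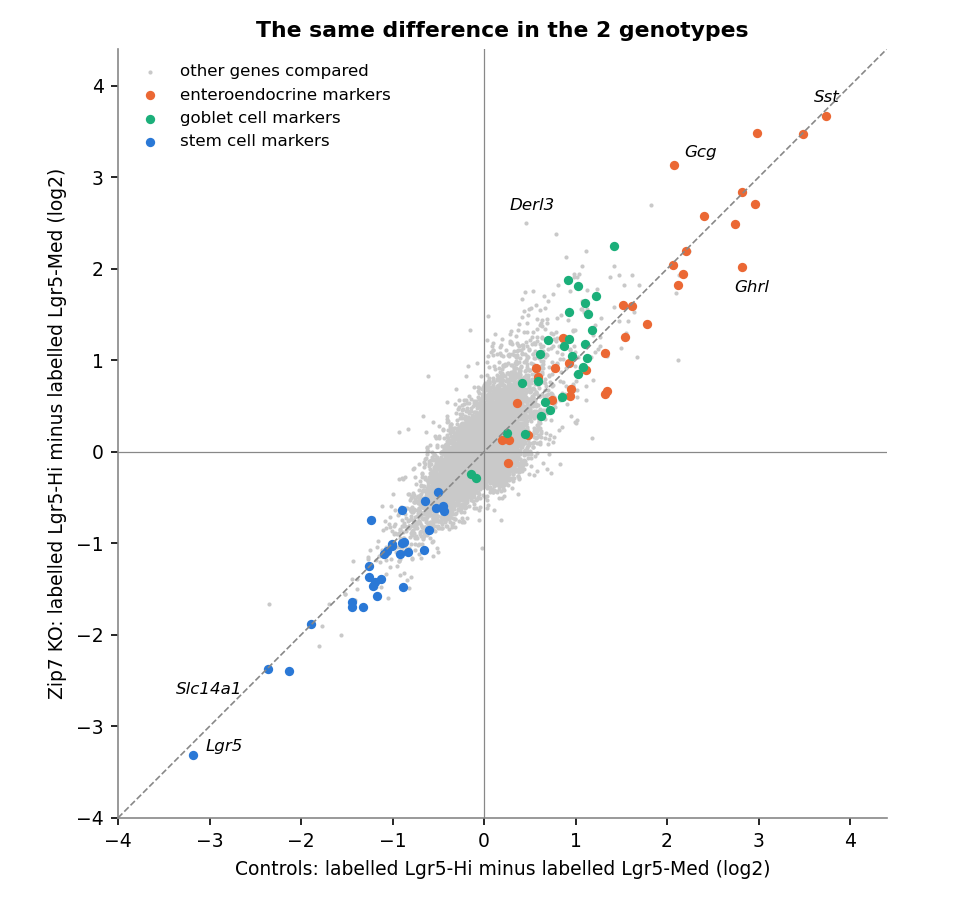
Difference in log2 level, labelled Lgr5-Hi minus labelled Lgr5-Med, in controls (horizontal) against the same difference in the Zip7 KO pair (vertical), 1 point for each of 12247 genes, with named genes labelled. The correlation across genes is 0.77, and Derl3 lies apart at 0.46 and 2.502.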

How the data were processed

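RNA of sorted crypt cells was extracted with Trizol, labelled with biotin and hybridised to Affymetrix arrays, per the labels' protocols. The deposited log2 values per probe set were made by the authors with RMA, per the submitters' processing notes. Which software ran it, with which annotation and on which arrays together, the sources used here do not say. The log base was read from the values, which ran from 3.08 to 14.6 (array medians 6.34 to 6.45). All 4 columns of values were mapped to a sample. RMA brings arrays run together to a common distribution, so a change in total RNA per cell cannot be seen from such values. The deposited values were not identical in distribution, with medians of 6.43 and 6.34 on the control arrays labelled Lgr5-Hi and Lgr5-Med.

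Of 35557 probe sets, 21789 had 1 gene symbol in the platform's annotation, 1621 had several and 12147 were not listed. Only the first kind was used. Of these, 21698 matched RefSeq gene IDs of GRCm38.p6, and 0 symbols were updated. Each of 19938 genes took the level of the probe set whose mean over all arrays was highest, 999 of which had more than 1 probe set. Genes above the floor on at least 1 control array, receptor genes left out, were compared (11735 were above it on the array labelled Lgr5-Hi and 12095 on that labelled Lgr5-Med). A difference with 1 value at or below the floor is given as at least the distance from the floor. Counts and list medians used the deposited values. The arrays have no replicates, so no p-value was computed.

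Named genes were the 25 with the largest difference in each direction, and members of the 31 lists, the first in the order written and those with the largest differences. Members, lists and rules were chosen with earlier results of these data known. Alternatives were other normalisations, probe set rules and floors. The code of the counting step was run on simulated data with large shifts in genes at high levels. That checks the code only, and covers neither genes near the floor nor the noise of these arrays. Python 3.11.15, pandas 2.3.3, numpy 2.4.6 and statsmodels 0.14.6 were used.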

Additional observations from a re-analysis of the deposited data

Results flagged for a closer look

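G6pc, the glucose-6-phosphatase gene, had a difference of -0.67 between the array labelled Lgr5-Hi and the array labelled Lgr5-Med in controls and of 0.39 in the Zip7 KO pair, and Gzmb had differences of -0.83 and 0.25. The sign was opposite in the genotypes, each with 1 array a side, and the difference between the genotypes was not tested.

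Probe sets outside the gene table also differed between the control arrays. Of 1064 probe sets with several symbols above the floor, 4 passed 2-fold above 0 and 0 passed it below 0 on the array labelled Lgr5-Hi, with a largest difference of 1.39. Of 5283 probe sets above the floor that the annotation does not list, 72 passed 2-fold above 0 and 27 below 0, with differences from -1.93 to 2.48. These probe sets are unnamed here.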

How the results depend on the processing

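With the main setting at 82 genes at least 2-fold higher and 64 lower, quantile normalisation gave 86 and 57, centring 77 and 66, averaged probe sets 82 and 63, a floor at percentile 90 84 and 64 and at percentile 99 80 and 64, genes above the floor on both arrays 70 and 61, and no filter 84 and 64. Removing a loess trend on level gave 102 and 51, which moved the share of higher calls from 56.2% to 66.7%. Placing the floor where values lay below it, an alternative chosen after seeing the data, gave 76 and 62. In 12 of the higher and 3 of the lower genes 1 value was at or below the floor, so their size is a bound. Over these settings the stem cell median ran from -1.08 to -0.99, the enteroendocrine median from 1.31 to 1.54 and the Wnt median from -0.55 to -0.33. The lymphocyte and myeloid median, at -0.24, was -0.41 at a floor of percentile 99. These shifts come from the settings alone and say nothing of replicate error. No named difference called at 2-fold changed sign. No paired analysis was possible because the control comparison has 1 array a side and so 1 pair, and a fit over both genotypes would give the fraction difference averaged over them, not that of controls. For the same reason no replicate could be left out. The number of arrays limits the precision of every value. Genes near the floor can have differences that are understated or shifted, since the receptor genes there had a median difference of 0.09.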
